A study of Mus musculus with 12 samples.

Results

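Presynaptic vesicle release was followed here through 48 genes across 4 groups of sorted neuronal nuclei from mouse hippocampus. The genes encode the proteins that fill, hold, prime and fuse synaptic vesicles, and they were taken by symbol from the 24015 rows of one table of counts per gene. All 48 had a row, and all 48 had enough counts to be tested. The 12 libraries are titled Early, Late, Reactivated and Basal, with 3 libraries each.

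All mice, Basal included, carried ArcCreERT2 (a tamoxifen-dependent Cre recombinase driven by Arc, a gene switched on by neuronal activity) and the R26R-STOP-floxed eYFP reporter, with the genotype field +/+ throughout. Activity around the time of the drug thus leaves a lasting fluorescent mark. Every mouse was to be given 4-hydroxytamoxifen 1 h before contextual fear conditioning, after 24 h in the dark. Brains were collected 1.5 to 2 h after conditioning, or 5 days after it with 48 h of that time in the dark, and a part of the later mice were exposed again to the tone and context. The treatment field is the same for all 12 libraries and gives collection on day 0, so the groups rest on the titles, and the labels do not say which sorting gate or time belongs to which title. Each library came from nuclei of pooled mice (10 to 12 per pool, 10000 nuclei per condition) stained for NeuN, Arc and GFP, and ages are not given. A replicate is a pool, and p-values measure the spread between pools. In pooled nuclei, fewer cells of a type and less RNA per cell cannot be told apart.

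At a nerve terminal, transporters load vesicles with glutamate, synapsins tether the vesicles in a reserve, and scaffolds of the active zone bring them to calcium channels. There the Munc13 proteins prime them, and a complex of SNARE proteins on the vesicle and plasma membrane holds them ready under complexin. Calcium binding to synaptotagmin then triggers fusion, after which the ATPase NSF takes the SNARE complex apart so that its parts can be used again. Different hippocampal neurons use different members of these families, so that the mix of members differs between dentate granule cells, pyramidal cells and interneurons.

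Totals were 4838166 to 11120255 counts per library, and the 48 members together took 0.821% to 1.12% of them. Rbfox3, which encodes the NeuN protein of neuronal nuclei, averaged 1751 normalized counts in Early, 2267 in Late, 1853 in Reactivated and 1779 in Basal. None of the 7 listed neuron markers was absent, but Snap25 and Syt1 among them are themselves members and glial markers were detected too, so this does not measure how pure the nuclei were. Levels below are normalized counts, which are counts divided by the library's effective size (edgeR's TMM scaling) relative to the geometric mean over libraries. Fold changes are log2 values ± SE from edgeR's quasi-likelihood test, with Benjamini-Hochberg adjustment across the 15668 genes tested. A gene "rose" or "fell" only where the adjusted p was under 0.05, and the count of such genes among all genes tested is given as the background.

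Marker lists for several hippocampal cell types differed between the groups. The 12 dentate granule markers summed to 2453 to 2944 normalized counts in Early libraries, 2776 to 4069 in Late, 1687 to 3684 in Reactivated and 9474 to 14231 in Basal. Of these 12, 11 fell in Early, 10 in Late and 11 in Reactivated, each against Basal. The 10 CA1 pyramidal markers summed to 2329 to 2562 in Early, 3402 to 4045 in Late, 3197 to 3917 in Reactivated and 898 to 1289.9 in Basal, and 8, 9 and 9 of them rose in Early, Late and Reactivated. The 11 markers of CA3 and CA2 summed to 2764 to 4255 in Early, 4109 to 4933 in Late, 2904 to 3332 in Reactivated and 1812 to 2117 in Basal, and 5, 7 and 8 of them rose. The 8 markers of subiculum and cortex reached 10709 to 20604 in Late and 6979 to 12688 in Reactivated, against 3611 to 4189 in Early and 2897 to 3953 in Basal. The 19 interneuron markers summed to 4625 to 7061 in Early, 4626 to 4801 in Late, 5227 to 5469.7 in Reactivated and 6823 to 8403 in Basal. Microglial markers, 10 genes, summed to 5694 to 9783 in Late, against 688 to 839 in Early, 868 to 2141 in Reactivated and 731 to 832 in Basal. The 12 oligodendrocyte markers summed to 1706 to 2224 in Early, 4777 to 9989 in Late, 2961 to 7806 in Reactivated and 1981 to 2623 in Basal. The 6 markers of oligodendrocyte precursors summed to 102 to 146 in Early, 71.9 to 82.9 in Late, 244 to 591 in Reactivated and 105 to 158 in Basal. The 10 astrocyte markers summed to 3691 to 5793 in Early, 4764 to 6946 in Late, 4999 to 11297 in Reactivated and 3442 to 6570.5 in Basal, and the 10 of blood vessels to 96.0 to 116 in Early, 67.3 to 103 in Late, 130.2 to 343 in Reactivated and 114 to 741 in Basal. The astrocyte sums of Late and Basal libraries overlapped, and the blood vessel sums of Late lay below those of Basal. No listed marker was at 0 in all libraries, and the part of cell composition in the results was not tested.

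Rn45s, the ribosomal RNA precursor, took 6.23%, 6.36% and 12.9% of counts in Early, 35.7%, 36.5% and 27.9% in Late, 27.7%, 18.8% and 20.7% in Reactivated, and 4.72%, 5.17% and 12.2% in Basal. Late and Reactivated libraries thus lay above every Early and Basal library, so this share and the groups cannot be told apart across those comparisons. The same holds for Reactivated against Late, where the lowest Late share (27.9%) was just above the highest Reactivated share (27.7%). Another gene, Lars2, took 3.54% to 4.61% of counts in Reactivated and no more than 1.19% in any other library. Its part was not tested. Within groups, 6 members had their highest level in the library with the top Rn45s share in at least 3 of the 4 groups, and 12 had their lowest level there. This was counted for the members alone, so no share of all genes stands beside it. With 3 libraries per group a gene unrelated to Rn45s can meet it too, and nothing is concluded from these counts.

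**Figure D1:**
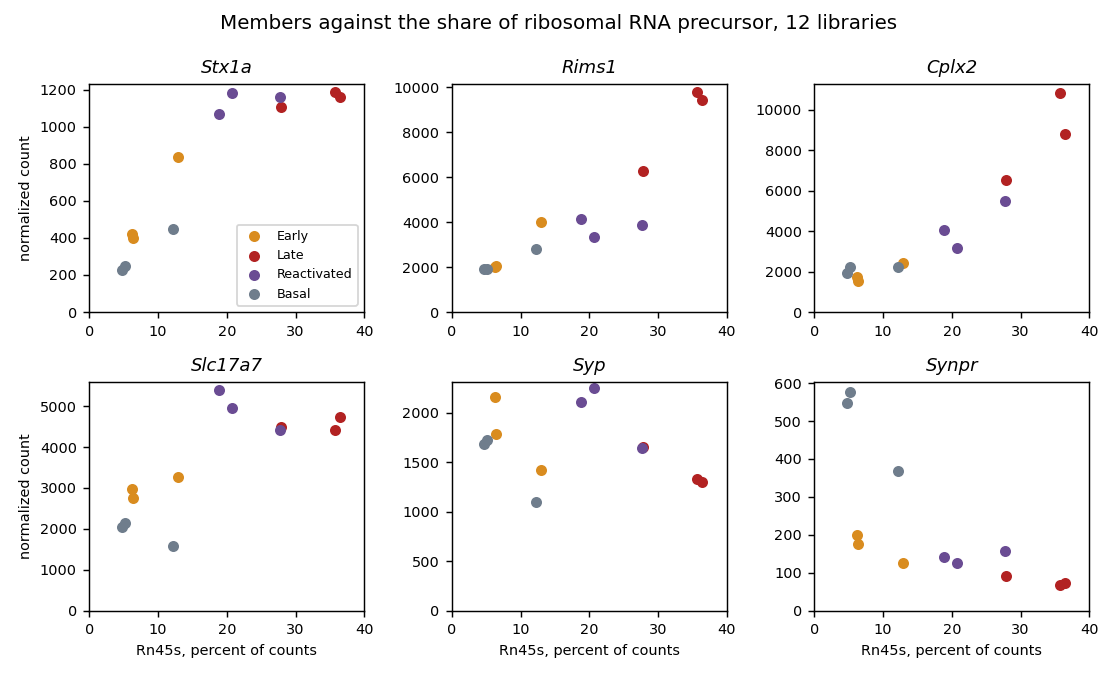
Normalized counts of 6 members (vertical axes) against the share of counts taken by Rn45s (horizontal axes, percent), 1 point per library, coloured by group. Stx1a, Rims1 and Cplx2 were highest within Early and within Basal in Early 3 and Basal 3, the libraries of highest share there, Syp was lowest in the library of highest share in all 4 groups, and Synpr was highest in Basal 1 and Basal 2.

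Of the 48 release genes, more rose than fell in each comparison with Basal. In Early against Basal 15 of 48 passed the test, 9 rising and 6 falling, where 6.03% of all genes passed (3.36% rising, 2.66% falling). The count fell to 8 without Basal 2 and 9 without Early 1, where the share of all genes was 3.12% and 3.52%. In Late against Basal 24 rose and 6 fell, which is 62.5% of the members beside a background of 49.1% (25.4% rising, 23.6% falling). In Reactivated against Basal 24 rose and 4 fell, 58.3% beside 39.4% (20.6% rising, 18.8% falling). The rising share of members was above that of all genes in Late and Reactivated, and the falling share was below it in both.

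The groups other than Basal were compared with each other in the same fit. In Late against Early 12 rose and 8 fell, 41.7% of the members beside 42.3% of all genes (22% rising, 20.4% falling), which is near the background. In Reactivated against Late 10 rose and 7 fell, 35.4% beside 22.6% (10.3% rising, 12.3% falling). In Reactivated against Early 12 rose and 1 fell, 27.1% beside 26.2% (13.5% rising, 12.7% falling), and 6 passed without Early 2 and 7 without Early 1. The comparisons share libraries, so their counts are not independent of each other.

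The median log2 fold change of the 48 members was 0.27 in Early against Basal, 0.44 in Late against Basal and 0.56 in Reactivated against Basal, beside 0.01, -0.03 and 0.02 over all genes. It was 0.28 in Late against Early, 0.03 in Reactivated against Late and 0.19 in Reactivated against Early, beside -0.03, 0.03 and 0.03 over all genes. The libraries did not overlap for 27 members in Early against Basal, where 23.4% of all genes did not, for 38 in Late against Basal (62.5%) and for 33 in Reactivated against Basal (45.8%). Between the other groups they did not overlap for 26 members in Late against Early (59.9% of all genes), 23 in Reactivated against Late (39.7%) and 18 in Reactivated against Early (39.1%). The share of members was thus above that of all genes in comparison with Basal and in Reactivated against Late, and below it in the others. Across all 4 groups together 39 members passed the test of any difference, beside 58.6% of all genes.

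These directions depend on how the libraries were scaled. Scaling every library to the same total moved the median of all genes to -0.87 in Late against Basal, -0.46 in Reactivated against Basal and -0.78 in Late against Early. It moved it to -0.08 in Early against Basal, 0.38 in Reactivated against Late and -0.37 in Reactivated against Early. The members' median was then 0.16 in Early against Basal, -0.41 in Late against Basal and 0.070 in Reactivated against Basal. It was -0.48 in Late against Early, 0.39 in Reactivated against Late and -0.19 in Reactivated against Early, so its sign turned in Late against Basal and in Late and Reactivated against Early. On that scaling 4 members rose and 7 fell in Early against Basal, beside 2.18% and 2.83% of all genes. In Late against Basal 6 rose and 21 fell, beside 8.94% and 57.8% of all genes (of the members 12.5% and 43.8%), and 9 members rose and 12 fell in Reactivated against Basal, beside 7.91% and 37.2% of all genes. Between the other groups 4 members rose and 24 fell in Late against Early, beside 7.71% and 54.9% of all genes, 19 members rose and 4 fell in Reactivated against Late, beside 24.8% and 6.96% of all genes, and 4 members rose and 5 fell in Reactivated against Early, beside 4.59% and 27.3% of all genes. The changes below are relative to the bulk of genes (TMM). Where the sign of a value turned under same-total scaling, or on adjusting for Rn45s (its share of counts entered as a covariate), the turned value follows it. This was done only for values past the threshold before or after turning. Many turned values did not themselves pass the threshold, and those leave the direction on that setting undecided. With the Rn45s share as a covariate, only Syp in Late against Basal and Syt5 in Reactivated against Late passed after turning. With that covariate, chosen after seeing the data, 21 members passed in Early against Basal, 3 in Late against Basal and 12 in Reactivated against Basal, beside 8.28%, 1.31% and 3.99% of all genes.

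**Figure D2:**
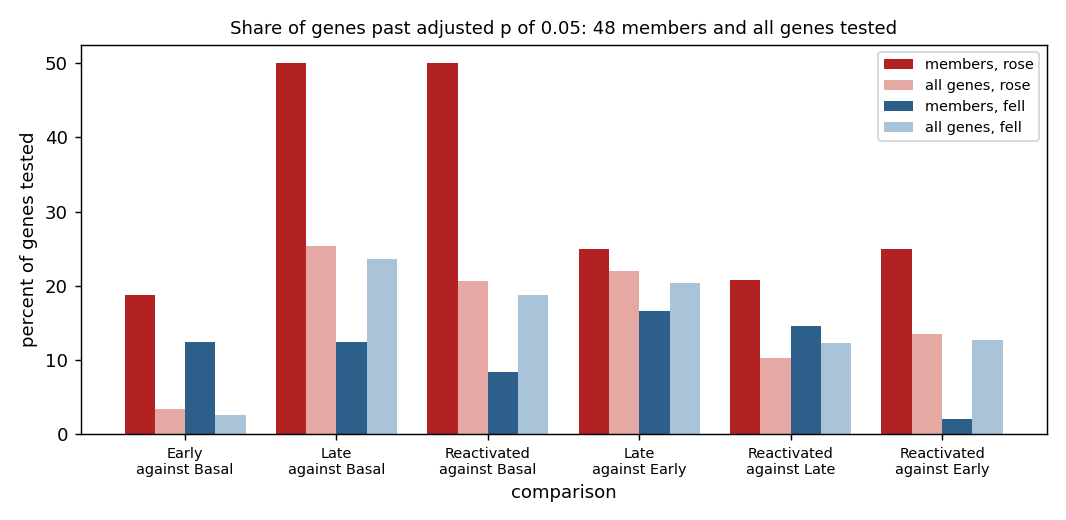
Percent of genes past an adjusted p of 0.05 (vertical axis) in each of the 6 comparisons, for the 48 members (dark bars) and all 15668 genes tested (light bars), with rising genes in red and falling genes in blue. The share of members that rose was 50% in Late against Basal and 50% in Reactivated against Basal, beside 25.4% and 20.6% of all genes.

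**Figure D3:**
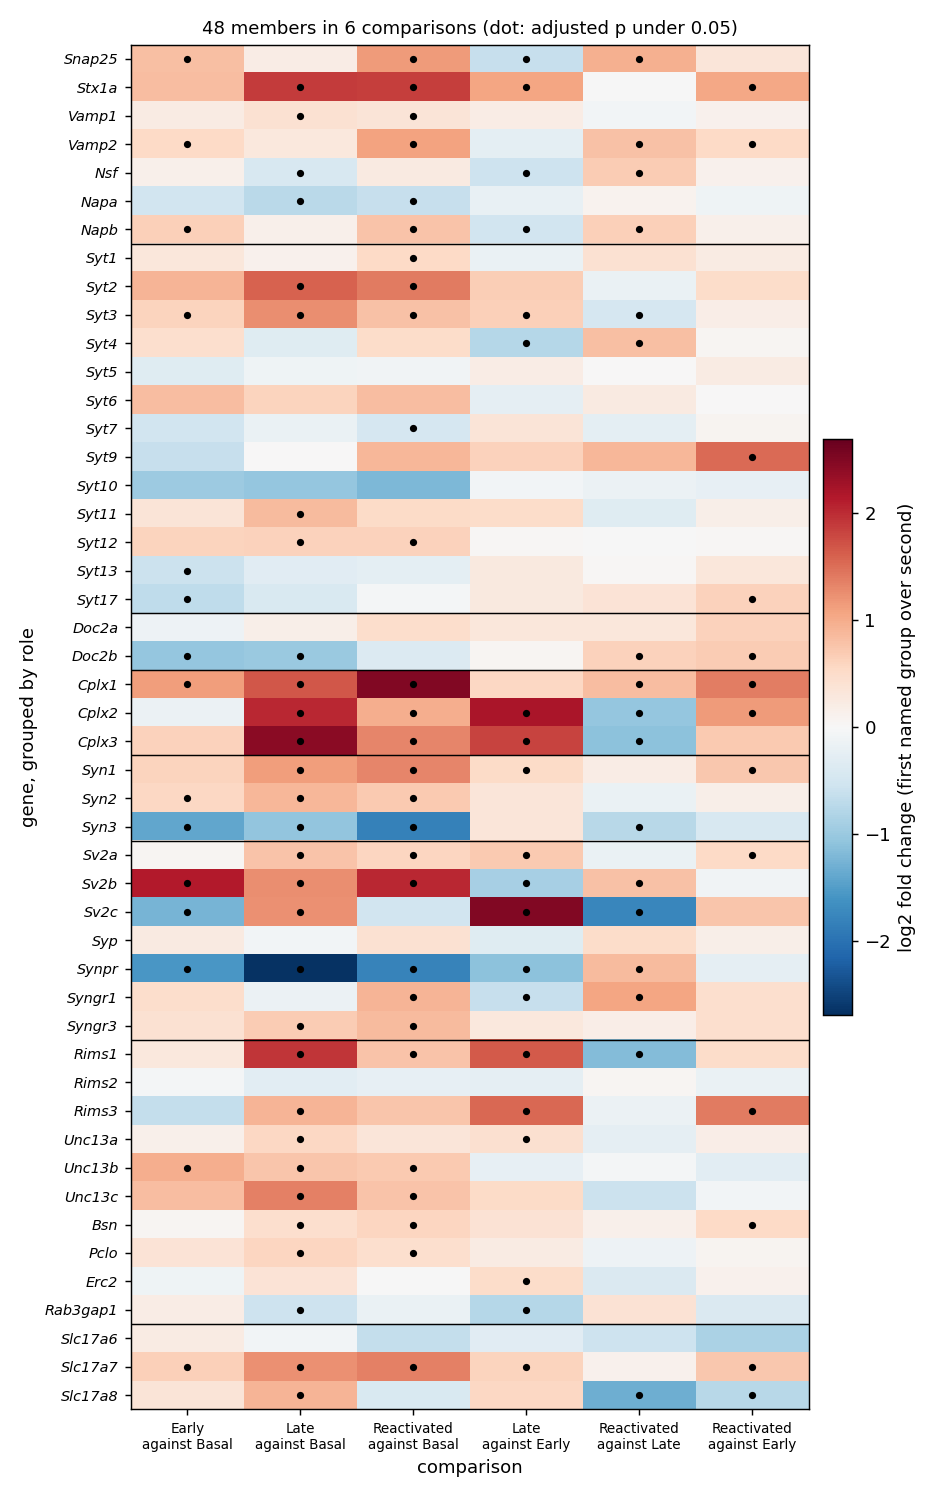
Log2 fold change (colour, red higher and blue lower in the first named group) of the 48 members (rows, grouped by role) in 6 comparisons (columns), with a dot where the adjusted p was under 0.05. Cplx1, Syn1, Slc17a7 and Sv2b were red in all 3 comparisons with Basal, Synpr and Syn3 blue in all 3, and the row of Snap25 turned blue in Late against Early and red in Reactivated against Late.

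The stretches of DNA just before the start of 4 members are given because these members rose in Late and in Reactivated against Basal by different amounts, and because Syn1 and Slc17a7 hold motif matches where Cplx1 and Cplx2 hold none. Each is the 250 bases before the RefSeq start of build GRCm38.p6, 5′ to 3′ on the gene's strand, with motif matches in capitals. The deposited table is of another build (mm9), so no coordinate of it is used.
Syn1 (chrX:20920919-20921168, minus strand): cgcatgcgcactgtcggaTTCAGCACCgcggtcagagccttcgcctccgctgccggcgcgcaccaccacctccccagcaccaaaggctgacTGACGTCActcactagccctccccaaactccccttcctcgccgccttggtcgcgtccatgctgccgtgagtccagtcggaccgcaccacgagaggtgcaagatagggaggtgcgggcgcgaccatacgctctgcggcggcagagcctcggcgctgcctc
Slc17a7 (chr7:45163671-45163920, plus strand): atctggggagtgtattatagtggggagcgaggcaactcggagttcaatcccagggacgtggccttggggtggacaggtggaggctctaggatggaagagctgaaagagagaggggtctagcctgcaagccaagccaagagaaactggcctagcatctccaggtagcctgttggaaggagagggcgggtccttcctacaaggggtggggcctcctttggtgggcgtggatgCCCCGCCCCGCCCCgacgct
Cplx1 (chr5:108550028-108550277, minus strand): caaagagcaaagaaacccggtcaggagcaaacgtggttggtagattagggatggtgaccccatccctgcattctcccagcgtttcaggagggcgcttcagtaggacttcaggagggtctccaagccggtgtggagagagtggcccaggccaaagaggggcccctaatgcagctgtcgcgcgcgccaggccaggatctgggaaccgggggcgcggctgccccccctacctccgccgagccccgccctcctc
Cplx2 (chr13:54302306-54302555, plus strand): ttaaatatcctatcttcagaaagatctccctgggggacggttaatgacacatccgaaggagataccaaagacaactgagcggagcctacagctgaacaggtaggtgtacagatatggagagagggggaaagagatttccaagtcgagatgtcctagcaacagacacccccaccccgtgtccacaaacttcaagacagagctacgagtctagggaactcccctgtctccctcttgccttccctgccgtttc
The capitals in Syn1 mark the left part of the element bound by the repressor REST, TTCAGCACC, and the cAMP response element TGACGTCA. Those in Slc17a7 mark a pair of overlapping GC boxes, GGGGCGGGG on the other strand. Both strands were searched for these motifs, for the AP-1 site TGANTCA, the EGR site GCGNGGGCG and the TATA box TATAAA, and no motif searched lay in the windows of Cplx1 and Cplx2. A window was at hand for 35 members. Of these, 1 (Syn1) held the cAMP response element, as did 1.77% of all 27025 genes with a window. The left part of the REST element was also in 1 (Syn1), beside 0.348% of all genes. The EGR site was in 5 of them (Nsf, Syn2, Synpr, Syngr1 and Unc13a), beside 5.33% of all genes, and the GC box in 11, beside 11.8%. The AP-1 site was in 2 (Syt2 and Erc2), 5.71% beside 7.82%, and the TATA box in 1 (Sv2b), 2.86% beside 14.3%, both below the share of all genes. A match is a run of letters and does not show that a factor binds there.

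Of the genes of membrane fusion, the SNARE genes and the genes that recycle them did not move as a block. Snap25, Napb and Nsf fell in Late against Early and rose in Reactivated against Late, while Stx1a rose in Late and in Reactivated against Early and Basal, Vamp2 was highest in Reactivated and Napa had its highest mean in Basal. Snap25, the plasma membrane SNARE that gives a pair of helices to the complex, had 4513, 3728 and 3762 normalized counts in Early, 2616, 2505 and 2704 in Late, 4518, 5543 and 5052 in Reactivated, against 2478, 2037 and 2319 in Basal. Early and Reactivated libraries lay above all Late and Basal libraries. It rose in Early against Basal (log2 fold change 0.81 ± 0.13, adjusted p = 0.00180) and in Reactivated against Basal (1.15 ± 0.14, adjusted p = 5.47e-05). It fell in Late against Early (-0.62 ± 0.13, adjusted p = 0.00212) and rose in Reactivated against Late (0.95 ± 0.13, adjusted p = 0.000145), and its value in Late against Basal was 0.20 ± 0.13, adjusted p = 0.240, but -0.65 with libraries scaled to the same total.

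Vamp2, the vesicle SNARE synaptobrevin, had 759, 674 and 631 normalized counts in Early, 549, 514 and 657 in Late, 933, 1074 and 992 in Reactivated, against 500.0, 424 and 493 in Basal. Every Reactivated library was above every other library. Vamp2 rose in Reactivated against Basal (1.08 ± 0.14, adjusted p = 9.88e-05), against Late (0.80 ± 0.14, adjusted p = 0.000746) and against Early (0.54 ± 0.14, adjusted p = 0.0122), and in Early against Basal (0.54 ± 0.14, adjusted p = 0.0306). Stx1a, the plasma membrane SNARE syntaxin, had 419.6, 397 and 839 normalized counts in Early, 1184, 1163 and 1104 in Late, 1161, 1069 and 1183 in Reactivated, against 228, 247 and 448 in Basal. Late and Reactivated libraries lay together above all Early and Basal libraries, and Early 3 and Basal 3 were the highest of their groups. Stx1a rose in Late against Basal (1.89 ± 0.28, adjusted p = 8.41e-05), a 3.71-fold change, and in Reactivated against Basal (1.87 ± 0.28, adjusted p = 0.000260). It also rose in Late against Early (1.06 ± 0.27, adjusted p = 0.00635, but -0.48 on adjusting for Rn45s) and in Reactivated against Early (1.04 ± 0.27, adjusted p = 0.0137).

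Napb, the neuronal adaptor that brings NSF to SNARE complexes, had 924, 763 and 771 normalized counts in Early, 555, 564 and 598 in Late, 787, 977 and 926 in Reactivated, against 522, 469 and 577 in Basal. Its Early and Reactivated libraries were all above its Late and Basal libraries. Napb rose in Early against Basal (0.65 ± 0.14, adjusted p = 0.0103) and in Reactivated against Basal (0.78 ± 0.14, adjusted p = 0.000757), fell in Late against Early (-0.52 ± 0.14, adjusted p = 0.00764) and rose in Reactivated against Late (0.65 ± 0.14, adjusted p = 0.00342). Nsf, the ATPase itself, had 1883, 1499.9 and 1878 normalized counts in Early, 1161, 1114 and 1306 in Late, 1744, 1929.7 and 2047 in Reactivated, against 1582, 1576 and 1649 in Basal. The 3 Late libraries were the lowest of the 12. Nsf fell in Late against Basal (-0.42 ± 0.13, adjusted p = 0.0159) and against Early (-0.55 ± 0.13, adjusted p = 0.00400) and rose in Reactivated against Late (0.68 ± 0.13, adjusted p = 0.00197).

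The other SNARE genes were Vamp1, a second synaptobrevin, at 235 to 347 with a median of 289 over the 12 libraries, and Napa, the widely expressed adaptor of NSF, at 326 to 709 with a median of 402. Vamp1 rose in Late against Basal (0.42 ± 0.13, adjusted p = 0.0152, but -0.42 with libraries scaled to the same total) and in Reactivated against Basal (0.34 ± 0.13, adjusted p = 0.0484, but -0.14 with libraries scaled to the same total), although it missed the threshold in the test over all 4 groups. Napa fell in both comparisons, with -0.72 ± 0.15, adjusted p = 0.00138 in Late and -0.62 ± 0.15, adjusted p = 0.00561 in Reactivated. Leaving out 1 library ended some of these calls, with the log2 fold change then in parentheses. For Early against Basal these were Vamp2 without Basal 1 (0.59) or Basal 2 (0.47) or Early 1 (0.47) or Early 2 (0.56), Napb without Basal 2 (0.57) or Early 1 (0.55). For Late against Basal these were Vamp1 without Basal 1 (0.37) or Late 3 (0.36), Nsf without Late 1 (-0.40) or Late 2 (-0.38). For Reactivated against Basal these were Vamp1 without any of 9 libraries (0.28 to 0.35), namely Basal 1, Basal 2, Early 1, Early 2, Late 1, Late 2, Late 3, Reactivated 2 and Reactivated 3. For Reactivated against Early these were Stx1a without Early 1 (0.88) or Early 2 (0.85), Vamp2 without Early 2 (0.52). With every library scaled to the same total, the calls that ended with their direction kept were Vamp2 (0.46) and Napb (0.57) in Early against Basal, Napb (0.30) in Reactivated against Basal, Stx1a (0.34) in Late against Early, Vamp2 (0.14) in Reactivated against Early.

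**Figure D4:**
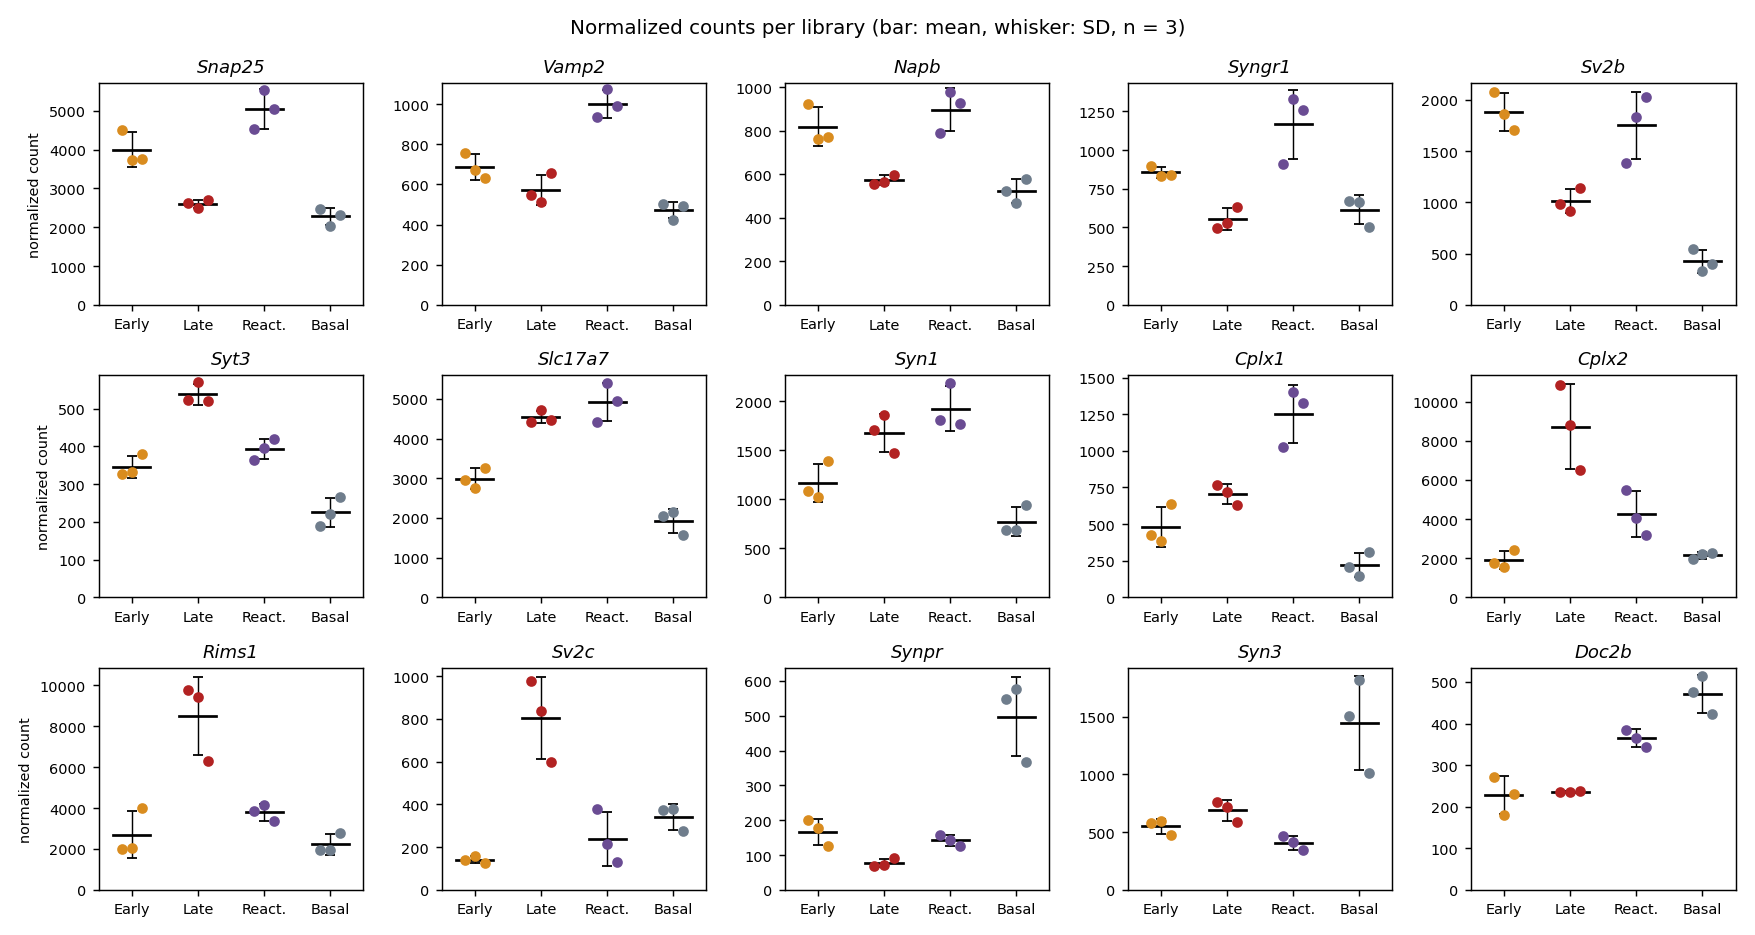
Normalized counts of 15 members (vertical axes from 0) in each library of Early, Late, Reactivated ("React.") and Basal, with the mean as a bar and the SD as a whisker (n = 3). Snap25, Napb and Sv2b were higher in Early and Reactivated than in Late, Cplx2, Rims1 and Sv2c were highest in Late, and Synpr, Syn3 and Doc2b were highest in Basal.

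Synaptotagmins, the calcium-binding vesicle proteins, did not move as a block. Syt2 and Syt3 rose in Late and Reactivated against Basal, Syt4 was low in Late, and Syt17 fell in Early. Syt3, of the high-affinity class, had 326, 331 and 378 normalized counts in Early, 522, 569 and 521 in Late, 365, 394 and 419 in Reactivated, against 189, 221 and 265 in Basal. Late libraries were the highest and Basal libraries the lowest, and Early and Reactivated libraries lay between and overlapped each other. Syt3 rose in Early (0.61 ± 0.15, adjusted p = 0.0213), Late (1.25 ± 0.15, adjusted p = 1.09e-05) and Reactivated (0.80 ± 0.15, adjusted p = 0.000987) against Basal. It rose further in Late against Early (0.64 ± 0.14, adjusted p = 0.00265, but -0.11 with libraries scaled to the same total) and fell in Reactivated against Late (-0.45 ± 0.14, adjusted p = 0.0348).

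Syt2, a fast calcium sensor, had 176, 176 and 85.2 normalized counts in Early, 223, 218 and 256 in Late, 147, 179.5 and 282 in Reactivated, against 90.7, 56.1 and 85.4 in Basal. All Late and Reactivated libraries were above all Basal libraries, and Early 3 was at the Basal level. It rose in Late against Basal (1.58 ± 0.30, adjusted p = 0.000557) and in Reactivated against Basal (1.40 ± 0.30, adjusted p = 0.00248). Syt17, also called B/K protein, had 188, 206 and 281 normalized counts in Early, 262, 279 and 269.9 in Late, 369, 378 and 298 in Reactivated, against 319, 399.6 and 362 in Basal. All Early libraries were below all Basal libraries. Syt17 fell in Early against Basal (-0.68 ± 0.17, adjusted p = 0.0250) and rose in Reactivated against Early (0.63 ± 0.17, adjusted p = 0.0149). Syt11, a form that does not bind calcium, had 1818, 1516 and 1179 normalized counts in Early, 2347, 2289 and 1739.7 in Late, 1536, 1745 and 1786 in Reactivated, against 1369, 1345 and 841 in Basal. Its Late libraries were above every Basal library, and Basal 3 was the lowest of the 12. Syt11 rose in Late against Basal (0.84 ± 0.20, adjusted p = 0.00323, but -0.041 with libraries scaled to the same total).

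Syt4, a gene known to respond to neuronal activity, had 687, 526 and 367 normalized counts in Early, 301, 272 and 345 in Late, 424, 637 and 560.4 in Reactivated, against 494, 365 and 303 in Basal. The highest Late library was below the lowest Early library, while Basal overlapped all other groups. Syt4 fell in Late against Early (-0.78 ± 0.23, adjusted p = 0.0150, but 0.88 on adjusting for Rn45s) and rose in Reactivated against Late (0.82 ± 0.23, adjusted p = 0.0203), and its value in Early against Basal was 0.45 ± 0.23, adjusted p = 0.358. Among the other synaptotagmins Syt1, the main fast sensor of forebrain synapses, ranged over 3766 to 7472 with a median of 5293 and rose in Reactivated against Basal (0.54 ± 0.15, adjusted p = 0.0126). Syt7, a sensor of slow release, ranged over 4035 to 8346 with a median of 5964 and fell in Reactivated against Basal (-0.46 ± 0.17, adjusted p = 0.0406). Syt12 (95.9 to 229 with a median of 173) rose in Late (0.63 ± 0.20, adjusted p = 0.0184, but -0.22 with libraries scaled to the same total) and Reactivated (0.62 ± 0.20, adjusted p = 0.0258) against Basal. Syt13 (615 to 1117 with a median of 776) fell in Early against Basal (-0.59 ± 0.15, adjusted p = 0.0274). Syt9, with low counts throughout (9.19 to 44.9 with a median of 21.3), rose in Reactivated against Early (1.52 ± 0.44, adjusted p = 0.0212). Syt5 (225 to 424 with a median of 326), Syt6 (22.4 to 93.6 with a median of 39.6) and Syt10 (12.3 to 139 with a median of 51.3) passed in no comparison. Without Reactivated 1, which had the highest Syt10 level of its group, Syt10 in Reactivated against Basal was -1.99, a value past the threshold. Other members, of this and other roles, also gained calls when 1 library was left out, and these are not all listed. In Early against Basal they included Syt2 without Early 3 (1.19) and Stx1a (1.22) and Syn1 (0.77) without Basal 3. Some calls ended without 1 library (log2 fold change then in parentheses). For Early against Basal these were Syt3 without Basal 1 (0.50) or Basal 2 (0.59) or Early 2 (0.64) or Early 3 (0.55), Syt13 without any of 5 libraries (-0.60 to -0.45), namely Basal 1, Basal 2, Early 1, Early 2 and Early 3, Syt17 without Basal 2 (-0.60) or Early 1 (-0.57) or Early 2 (-0.62). For Late against Basal these were Syt12 without Basal 1 (0.46) or Basal 3 (0.56) or Late 2 (0.53). For Reactivated against Basal these were Syt1 without Reactivated 2 (0.45), Syt7 without any of 7 libraries (-0.46 to -0.29), namely Basal 2, Early 2, Late 1, Late 2, Late 3, Reactivated 2 and Reactivated 3, Syt12 without Basal 1 (0.47) or Basal 3 (0.54) or Reactivated 1 (0.46). For Late against Early these were Syt4 without Early 1 (-0.55) or Late 2 (-0.70). For Reactivated against Late these were Syt3 without any of 5 libraries (-0.48 to -0.40), namely Late 1, Late 2, Late 3, Reactivated 1 and Reactivated 2, Syt4 without Late 1 (0.81) or Late 2 (0.74) or Reactivated 2 (0.69) or Reactivated 3 (0.79). For Reactivated against Early these were Syt9 without Early 1 (1.52) or Early 3 (1.29), Syt17 without Early 1 (0.52) or Early 2 (0.57). Same-total scaling ended, without a change of direction, the calls of Syt3 (0.53) in Early against Basal, Syt2 (0.76) in Late against Basal, Syt1 (0.04), Syt3 (0.33) and Syt12 (0.12) in Reactivated against Basal, Syt3 (-0.09) in Reactivated against Late, Syt9 (1.11) and Syt17 (0.25) in Reactivated against Early.

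The Doc2 genes encode high-affinity calcium sensors linked to spontaneous release. Doc2b had 271, 181 and 231 normalized counts in Early, 234, 235 and 238 in Late, 385, 366 and 344 in Reactivated, against 475, 515 and 423 in Basal. Early and Late libraries were the lowest, Reactivated libraries lay between, and Basal libraries were the highest, with no overlap between these 3 levels. Doc2b fell against Basal both in Early (-1.05 ± 0.15, adjusted p = 0.000751) and in Late (-1.0 ± 0.16, adjusted p = 0.000125), and rose in Reactivated against Late (0.63 ± 0.16, adjusted p = 0.00931) and against Early (0.68 ± 0.15, adjusted p = 0.00689). Doc2a (34.4 to 94.1 with a median of 66.7) passed in no comparison. No call of this group ended when any 1 library was left out. Scaled to the same total, the direction held but the call ended for Doc2b (0.28) in Reactivated against Early.

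Complexins, small proteins that bind the assembled SNARE complex and both hold and promote fusion, showed some of the larger changes of the 48 genes. All 3 rose in Late and in Reactivated against Basal, but Cplx2 and Cplx3 were highest in Late and Cplx1 was highest in Reactivated. Cplx1 had 428, 382 and 637 normalized counts in Early, 764, 723 and 630.3 in Late, 1027, 1403 and 1328 in Reactivated, against 209, 143 and 306 in Basal. The Reactivated libraries stood above all others, and Basal libraries were the lowest. Cplx1 rose in Early (1.13 ± 0.25, adjusted p = 0.0132), Late (1.67 ± 0.25, adjusted p = 9.06e-05) and Reactivated (2.50 ± 0.26, adjusted p = 2.28e-05) against Basal, the last a 5.67-fold change. It also rose in Reactivated against Late (0.83 ± 0.24, adjusted p = 0.0226) and against Early (1.38 ± 0.24, adjusted p = 0.00211).

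Cplx2 had 1753, 1534 and 2425 normalized counts in Early, 10825, 8823 and 6509 in Late, 5504, 4065 and 3172 in Reactivated, against 1947, 2227 and 2241 in Basal. Late libraries were the highest, Reactivated libraries came next, and Early and Basal libraries overlapped. Cplx2 rose in Late against Basal (2.03 ± 0.23, adjusted p = 8.48e-06), a 4.08-fold change, and in Late against Early (2.19 ± 0.23, adjusted p = 6.41e-06). It rose in Reactivated against Basal (0.99 ± 0.23, adjusted p = 0.00377) and against Early (1.16 ± 0.23, adjusted p = 0.00348), and fell in Reactivated against Late (-1.04 ± 0.23, adjusted p = 0.00402). Cplx3, known from ribbon synapses of the retina, had 43.8, 43.5 and 32.6 normalized counts in Early, 150.1, 111 and 161 in Late, 85.4, 44.0 and 68.4 in Reactivated, against 28.5, 25.8 and 24.4 in Basal. Its Late libraries were above all others. Cplx3 rose in Late against Basal (2.43 ± 0.28, adjusted p = 8.43e-06) and against Early (1.82 ± 0.26, adjusted p = 9.38e-05), rose in Reactivated against Basal (1.32 ± 0.28, adjusted p = 0.00256) and fell in Reactivated against Late (-1.11 ± 0.26, adjusted p = 0.00604). A few of the calls rested on 1 library or more, with the log2 fold change without it in parentheses. For Early against Basal these were Cplx1 without Basal 1 (1.09) or Basal 2 (0.90) or Early 3 (0.88). For Reactivated against Late these were Cplx1 without any of 5 libraries (0.74 to 0.89), namely Late 1, Late 2, Late 3, Reactivated 2 and Reactivated 3. With every library scaled to the same total, the calls that ended with their direction kept were Cplx3 (0.83) in Reactivated against Basal, Cplx3 (-0.77) in Reactivated against Late.

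Synapsins split, with Syn1 and Syn2 higher and Syn3 lower than in Basal. Syn1, whose protein coats vesicles and ties them to the reserve, had 1088, 1022 and 1389 normalized counts in Early, 1702, 1856 and 1467 in Late, 1810.4, 2186 and 1767 in Reactivated, against 684, 681 and 938 in Basal. Basal libraries were below all others, and Late and Reactivated libraries were above all Early libraries. Syn1 rose in Late (1.12 ± 0.17, adjusted p = 0.000106) and Reactivated (1.32 ± 0.17, adjusted p = 0.000103) against Basal, and in Late (0.52 ± 0.17, adjusted p = 0.0226, but -0.23 with libraries scaled to the same total and -0.22 on adjusting for Rn45s) and Reactivated (0.72 ± 0.17, adjusted p = 0.00841) against Early. Syn2 had 1396, 1210.1 and 1563 normalized counts in Early, 1756, 1774 and 1691 in Late, 1324, 1727 and 1569 in Reactivated, against 891, 833 and 1096 in Basal. All its Basal libraries lay below every other library. Syn2 rose in Early (0.56 ± 0.15, adjusted p = 0.0370), Late (0.89 ± 0.15, adjusted p = 0.000240) and Reactivated (0.71 ± 0.15, adjusted p = 0.00229) against Basal.

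Syn3, the form tied to early neuronal development, had 579, 598 and 472 normalized counts in Early, 759, 720.0 and 589 in Late, 467, 416 and 345 in Reactivated, against 1510.5, 1814 and 1014 in Basal. Basal libraries were the highest and Reactivated libraries the lowest. Syn3 fell in Early (-1.39 ± 0.20, adjusted p = 0.000606), Late (-1.07 ± 0.20, adjusted p = 0.000498) and Reactivated (-1.82 ± 0.20, adjusted p = 3.84e-05) against Basal, and in Reactivated against Late (-0.75 ± 0.20, adjusted p = 0.0141). The dentate granule markers, given above, were likewise highest in Basal, and the part of dentate nuclei in this result was not tested. Leaving out 1 library ended some of these calls, with the log2 fold change then in parentheses. For Early against Basal these were Syn2 without any of 7 libraries (0.48 to 0.56), namely Basal 1, Basal 2, Early 1, Early 3, Late 1, Late 2 and Late 3. For Late against Early these were Syn1 without Early 1 (0.47) or Early 2 (0.43) or Late 1 (0.51) or Late 2 (0.44). For Reactivated against Late these were Syn3 without Late 1 (-0.68) or Late 2 (-0.72) or Reactivated 3 (-0.64). For Reactivated against Early these were Syn1 without Early 2 (0.63). Same-total scaling ended, without a change of direction, the calls of Syn2 (0.47) in Early against Basal, Syn1 (0.28) and Syn2 (0.05) in Late against Basal, Syn2 (0.24) in Reactivated against Basal, Syn3 (-0.39) in Reactivated against Late, Syn1 (0.34) in Reactivated against Early.

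Genes of the vesicle membrane moved in both directions. In Late against Basal 4 of 7 rose and 1 fell, beside 25.4% and 23.6% of all genes, and same-total scaling turned the sign of Sv2a and Syngr3. Synpr, a relative of synaptophysin known from mossy fibre terminals of dentate granule cells, had 199, 177 and 126 normalized counts in Early, 68.5, 72.7 and 91.5 in Late, 158, 143 and 125 in Reactivated, against 548, 577 and 368 in Basal. Basal libraries were the highest and Late libraries the lowest. Synpr fell in Early (-1.57 ± 0.21, adjusted p = 0.000352), Late (-2.67 ± 0.22, adjusted p = 6.52e-07) and Reactivated (-1.81 ± 0.21, adjusted p = 5.21e-05) against Basal, fell in Late against Early (-1.10 ± 0.22, adjusted p = 0.00133) and rose in Reactivated against Late (0.86 ± 0.23, adjusted p = 0.0131). As with Syn3, dentate granule markers were highest in Basal, and their part was not tested.

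Sv2a, Sv2b and Sv2c encode vesicle glycoproteins that act on the calcium response of release. Sv2b had 2072, 1861 and 1709 normalized counts in Early, 985, 914 and 1141 in Late, 1386, 1835 and 2028 in Reactivated, against 549, 325 and 402 in Basal. All its Basal libraries were below every other library, and Late lay below Early and Reactivated. Sv2b rose in Early (2.15 ± 0.20, adjusted p = 3.79e-05), a 4.42-fold change, in Late (1.25 ± 0.19, adjusted p = 0.000116) as well as in Reactivated (2.04 ± 0.20, adjusted p = 1.52e-05) against Basal. It fell in Late against Early (-0.89 ± 0.19, adjusted p = 0.00186) and rose in Reactivated against Late (0.79 ± 0.19, adjusted p = 0.00780). Sv2c had 138, 160.1 and 126 normalized counts in Early, 979, 835 and 599.5 in Late, 377, 213 and 129.7 in Reactivated, against 373, 377 and 273 in Basal. Late libraries were the highest and Early libraries were all below Basal, while Reactivated libraries spread from below Basal 3 to the level of Basal 2. Sv2c fell in Early against Basal (-1.26 ± 0.30, adjusted p = 0.0205), rose in Late against Basal (1.24 ± 0.29, adjusted p = 0.00280) and against Early (2.50 ± 0.31, adjusted p = 2.16e-05) and fell in Reactivated against Late (-1.76 ± 0.30, adjusted p = 0.000614). Sv2a had 1369, 1261 and 1571 normalized counts in Early, 2154, 2459.8 and 2284 in Late, 1549, 2226 and 2285 in Reactivated, against 1415, 1214 and 1403 in Basal. Late libraries were above all Early and Basal libraries, and Reactivated 1 was below Early 3. Sv2a rose in Late (0.77 ± 0.16, adjusted p = 0.00103, but -0.069 with libraries scaled to the same total) and Reactivated (0.59 ± 0.16, adjusted p = 0.00937) against Basal, and in Late (0.72 ± 0.16, adjusted p = 0.00234, but -0.030 with libraries scaled to the same total) and Reactivated (0.53 ± 0.16, adjusted p = 0.0244) against Early.

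Syngr1, a synaptogyrin, had 899, 830.0 and 839 normalized counts in Early, 499.6, 527 and 633 in Late, 910.0, 1330.5 and 1258 in Reactivated, against 674, 666 and 506 in Basal. Reactivated libraries were the highest and Late libraries overlapped Basal. Syngr1 rose in Reactivated against Basal (0.93 ± 0.17, adjusted p = 0.000867) and against Late (1.08 ± 0.17, adjusted p = 0.000326) and fell in Late against Early (-0.63 ± 0.17, adjusted p = 0.00769, but 0.41 on adjusting for Rn45s). Its relative Syngr3 (124 to 293 with a median of 216) rose in Late (0.68 ± 0.21, adjusted p = 0.0141, but -0.16 with libraries scaled to the same total) and Reactivated (0.86 ± 0.21, adjusted p = 0.00515) against Basal. Syp, synaptophysin, ranged over 1101 to 2250.4 with a median of 1669 and passed in no comparison, with -0.08 ± 0.20, but 1.47 on adjusting for Rn45s, in Late against Basal. Some calls ended without 1 library (log2 fold change then in parentheses). For Early against Basal these were Sv2c without Basal 1 (-1.19) or Basal 2 (-1.18) or Early 1 (-1.25) or Early 3 (-1.18). For Late against Basal these were Syngr3 without Basal 2 (0.62) or Basal 3 (0.56) or Late 3 (0.59). For Reactivated against Late these were Synpr without Late 1 (0.78) or Late 2 (0.81). For Reactivated against Early these were Sv2a without Early 1 (0.51) or Early 2 (0.46) or Reactivated 2 (0.45) or Reactivated 3 (0.43). Scaled to the same total, the direction held but the call ended for Sv2b (0.42) and Sv2c (0.36) in Late against Basal, Sv2a (0.12), Syngr1 (0.44) and Syngr3 (0.36) in Reactivated against Basal, Sv2a (0.15) in Reactivated against Early.

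Of the 10 active zone and priming genes, 7 rose and 1 fell in Late against Basal, beside 25.4% and 23.6% of all genes. In Reactivated against Basal 5 rose and 0 fell, beside 20.6% and 18.8% of all genes. However, of those that rose, same-total scaling turned the sign of Unc13a, Unc13b, Bsn and Pclo in Late and of Pclo in Reactivated. It also turned Erc2 in Late against Basal, which had not passed (0.38), to -0.47, adjusted p = 0.00772 in edgeR. Rims1, the scaffold that holds calcium channels and Rab3 vesicles at the active zone, had 2011, 2044 and 4022 normalized counts in Early, 9764, 9439 and 6286 in Late, 3867, 4140.1 and 3341 in Reactivated, against 1926, 1933 and 2797 in Basal. Late libraries were the highest, and Early 3 was near the Reactivated level. Rims1 rose in Late against Basal (1.94 ± 0.26, adjusted p = 3.98e-05) and against Early (1.66 ± 0.26, adjusted p = 0.000190, but -0.0042 on adjusting for Rn45s), rose in Reactivated against Basal (0.77 ± 0.26, adjusted p = 0.0282, but -0.21 on adjusting for Rn45s) and fell in Reactivated against Late (-1.17 ± 0.26, adjusted p = 0.00450). Unc13b, the priming factor Munc13-2, had 1342, 1412 and 1769 normalized counts in Early, 1243, 1247 and 1399 in Late, 980.2, 1319.9 and 1435 in Reactivated, against 699.5, 716 and 887 in Basal. Its Basal libraries were below all others. Unc13b rose in Early (0.97 ± 0.17, adjusted p = 0.00228), Late (0.75 ± 0.17, adjusted p = 0.00184, but -0.071 with libraries scaled to the same total) and Reactivated (0.70 ± 0.17, adjusted p = 0.00488) against Basal.

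Unc13c, the priming factor Munc13-3, had 187, 186 and 317 normalized counts in Early, 346, 378 and 264 in Late, 199.6, 167 and 289 in Reactivated, against 172, 96.5 and 119.8 in Basal. Late libraries were above all Basal libraries, and Reactivated 2 was below Basal 1. Unc13c rose in Late (1.35 ± 0.27, adjusted p = 0.000964) and Reactivated (0.76 ± 0.27, adjusted p = 0.0381) against Basal. Rims3, a short form of the scaffold family, had 16.7, 28.3 and 20.0 normalized counts in Early, 62.4, 62.1 and 70.0 in Late, 49.6, 73.9 and 49.7 in Reactivated, against 31.1, 22.4 and 48.1 in Basal. Late and Reactivated libraries were above all others. Rims3 rose in Late against Early (1.56 ± 0.32, adjusted p = 0.00157), in Reactivated against Early (1.40 ± 0.32, adjusted p = 0.00766) and in Late against Basal (0.91 ± 0.31, adjusted p = 0.0267). Bsn, the large cytomatrix protein bassoon, had 4819, 4812 and 6982 normalized counts in Early, 7831, 7827 and 6242 in Late, 8625, 7935 and 7403 in Reactivated, against 4796, 5463 and 5699 in Basal. Late and Reactivated libraries were above all Basal libraries, and Early 3 was above Late 3. Bsn rose in Late (0.46 ± 0.16, adjusted p = 0.0302, but -0.40 with libraries scaled to the same total and -0.53 on adjusting for Rn45s) and Reactivated (0.59 ± 0.16, adjusted p = 0.0113) against Basal and in Reactivated against Early (0.53 ± 0.16, adjusted p = 0.0280).

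Pclo, the cytomatrix protein piccolo, ranged over 9954 to 16938 with a median of 12906 and rose in Late (0.59 ± 0.14, adjusted p = 0.00324, but -0.27 with libraries scaled to the same total) and Reactivated (0.45 ± 0.14, adjusted p = 0.0196, but -0.031 with libraries scaled to the same total) against Basal. Unc13a, the main priming factor of excitatory synapses, ranged over 5921 to 10198 with a median of 8139 and rose in Late against Basal (0.56 ± 0.16, adjusted p = 0.00883, but -0.28 with libraries scaled to the same total and -0.076 on adjusting for Rn45s) and against Early (0.43 ± 0.16, adjusted p = 0.0404, but -0.31 with libraries scaled to the same total, -0.021 on the values as deposited and -0.18 on adjusting for Rn45s). Erc2, a scaffold also called CAST (5342 to 10219 with a median of 7562), rose in Late against Early (0.49 ± 0.19, adjusted p = 0.0472, but -0.25 with libraries scaled to the same total and -0.45 on adjusting for Rn45s) and missed the threshold in the test over all 4 groups. Rab3gap1, part of an enzyme acting on the vesicle protein Rab3 (369 to 857 with a median of 693), fell in Late against Basal (-0.57 ± 0.22, adjusted p = 0.0424, but 0.65 on adjusting for Rn45s) and against Early (-0.77 ± 0.22, adjusted p = 0.0107, but 0.40 on adjusting for Rn45s). Rims2 (1369.9 to 2057 with a median of 1623) passed in no comparison. Omission of 1 library ended these calls, values in parentheses. The Late against Basal calls that ended were Rims3 without any of 5 libraries (0.69 to 0.94), namely Basal 1, Basal 2, Late 1, Late 2 and Late 3, Unc13a without Basal 1 (0.45), Bsn without Basal 1 (0.35) or Basal 2 (0.48) or Late 1 (0.41) or Late 2 (0.40), Rab3gap1 without any of 7 libraries (-0.60 to -0.48), namely Basal 1, Basal 2, Basal 3, Early 1, Early 2, Late 1 and Late 2. The Reactivated against Basal calls that ended were Rims1 without Basal 1 (0.67) or Basal 2 (0.68) or Reactivated 1 (0.75) or Reactivated 2 (0.70), Unc13c without Basal 2 (0.60) or Basal 3 (0.71) or Reactivated 3 (0.50), Bsn without Basal 1 (0.51), Pclo without Basal 1 (0.42) or Basal 2 (0.43) or Reactivated 2 (0.39). The Late against Early calls that ended were Unc13a without any of 7 libraries (0.33 to 0.47), namely Basal 1, Early 1, Early 2, Late 1, Late 2, Late 3 and Reactivated 3, Erc2 without any of 9 libraries (0.35 to 0.49), namely Basal 1, Basal 2, Early 1, Early 2, Late 1, Late 2, Reactivated 1, Reactivated 2 and Reactivated 3, Rab3gap1 without Late 2 (-0.68). The Reactivated against Early calls that ended were Bsn without Early 1 (0.44) or Early 2 (0.44) or Reactivated 1 (0.47) or Reactivated 2 (0.53). With every library scaled to the same total, the calls that ended with their direction kept were Rims3 (0.11) and Unc13c (0.48) in Late against Basal, Rims1 (0.30), Unc13b (0.23), Unc13c (0.28) and Bsn (0.10) in Reactivated against Basal, Rims3 (0.81) in Late against Early, Bsn (0.15) in Reactivated against Early.

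Vesicular glutamate transporters fill vesicles and tell glutamatergic neurons apart. Slc17a7, which encodes VGLUT1 of hippocampal and cortical pyramidal neurons, had 2964, 2745 and 3268 normalized counts in Early, 4427, 4723 and 4479 in Late, 4425, 5392 and 4951 in Reactivated, against 2043, 2146 and 1578 in Basal. Basal libraries were the lowest, Early libraries lay between, and Late and Reactivated libraries were the highest, with overlap between those 2 groups alone. Slc17a7 rose in Early (0.64 ± 0.14, adjusted p = 0.0138), Late (1.24 ± 0.14, adjusted p = 9.39e-06) and Reactivated (1.36 ± 0.14, adjusted p = 2.87e-05) against Basal, and in Late (0.60 ± 0.14, adjusted p = 0.00365, but -0.15 with libraries scaled to the same total) and Reactivated (0.72 ± 0.14, adjusted p = 0.00359) against Early. Markers of CA1 pyramidal neurons, given above, were likewise higher in these groups than in Basal, and their part was not tested.

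Slc17a8, which encodes VGLUT3, a transporter found in some interneurons, had 159, 151 and 106 normalized counts in Early, 223, 192 and 202 in Late, 95.0, 98.6 and 53.3 in Reactivated, against 118, 131 and 81.1 in Basal. Late libraries were the highest. Slc17a8 rose in Late against Basal (0.91 ± 0.25, adjusted p = 0.00734) and fell in Reactivated against Late (-1.33 ± 0.25, adjusted p = 0.00160) and against Early (-0.76 ± 0.25, adjusted p = 0.0394). Slc17a6, the VGLUT2 gene of thalamic and other inputs (26.2 to 123 with a median of 65.1), passed in no comparison. A few of the calls rested on 1 library or more, with the log2 fold change without it in parentheses. For Reactivated against Early these were Slc17a8 without any of 6 libraries (-0.76 to -0.52), namely Early 1, Early 2, Late 1, Late 2, Late 3 and Reactivated 3. Same-total scaling ended, without a change of direction, the calls of Slc17a7 (0.53) in Early against Basal, Slc17a7 (0.38) and Slc17a8 (0.05) in Late against Basal, Slc17a7 (0.33) in Reactivated against Early.

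A wider set of 93 genes of the same pathway stood in 5 lists, and 88 of them were tested. In Early against Basal 6 rose and 5 fell, in Late against Basal 35 rose and 17 fell, and in Reactivated against Basal 33 rose and 15 fell. The background for these counts is the 6.03%, 49.1% and 39.4% of all genes given above. Their median log2 fold changes were 0.08, 0.27 and 0.25 in Early, Late and Reactivated against Basal.

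Of 16 other SNARE and fusion genes tested, 6 rose and 5 fell in Late against Basal, beside 25.4% and 23.6% of all genes. Vamp3, a widely expressed vesicle SNARE, fell in Late (-1.25 ± 0.18, adjusted p = 6.61e-05). Stxbp6, also called amisyn, fell in Early (-1.82 ± 0.25, adjusted p = 0.000490) and in Reactivated (-1.63 ± 0.25, adjusted p = 0.000328) against Basal. It is also one of the dentate granule markers counted above, so the 2 results are not separate.

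Among 13 other calcium sensors and priming factors, 3 rose and 3 fell in Late against Basal, beside 25.4% and 23.6% of all genes. Cadps, the CAPS priming factor of dense-core vesicles, rose in Late (2.04 ± 0.21, adjusted p = 2.93e-06) and fell in Reactivated against Late (-1.16 ± 0.20, adjusted p = 0.000716). Cadps2, its relative, rose in Early (1.05 ± 0.13, adjusted p = 0.000261), Late (1.21 ± 0.13, adjusted p = 6.42e-06) and Reactivated (1.31 ± 0.13, adjusted p = 2.28e-05) against Basal. Rph3a, the Rab3 effector rabphilin, rose in Late against Basal (1.50 ± 0.17, adjusted p = 6.17e-06) and fell in Reactivated against Late (-1.11 ± 0.16, adjusted p = 0.000205).

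Of 14 other active zone genes, 8 rose and 2 fell in Late against Basal, beside 25.4% and 23.6% of all genes. In Reactivated against Basal 7 rose and 1 fell, beside 20.6% and 18.8% of all genes. Ppfia2, a liprin scaffold, fell in Early (-0.93 ± 0.16, adjusted p = 0.00230), Late (-1.46 ± 0.16, adjusted p = 6.63e-06) and Reactivated (-1.15 ± 0.16, adjusted p = 0.000165), while its relative Ppfia3 rose in Late (1.26 ± 0.25, adjusted p = 0.000709). Apba1, the adaptor Mint1, rose in Late (1.08 ± 0.15, adjusted p = 5.97e-05) and Reactivated (0.80 ± 0.15, adjusted p = 0.00124). Of 18 other vesicle genes, 6 rose and 5 fell in Late against Basal, beside 25.4% and 23.6% of all genes. Slc30a3, the vesicular zinc transporter of mossy fibres, fell in Early (-1.30 ± 0.26, adjusted p = 0.00710), Late (-1.42 ± 0.26, adjusted p = 0.000521) and Reactivated (-1.62 ± 0.27, adjusted p = 0.000480). Sncb, beta-synuclein, rose in Late (1.65 ± 0.23, adjusted p = 5.29e-05) and Reactivated (1.64 ± 0.23, adjusted p = 0.000182).

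Genes of vesicle endocytosis, by which membrane is taken back after release, gave 4 that rose and 0 that fell of 27 in Early against Basal. Of all genes 3.36% rose and 2.66% fell there. In Late against Basal 12 of the 27 rose and 2 fell, beside 25.4% and 23.6% of all genes. In Reactivated against Basal 15 rose and 1 fell, beside 20.6% and 18.8% of all genes. Sh3gl2, endophilin, rose in Early (0.61 ± 0.14, adjusted p = 0.0176), Late (0.91 ± 0.14, adjusted p = 0.000112) and Reactivated (1.15 ± 0.14, adjusted p = 6.93e-05). Cltb, a clathrin light chain, rose in Late (1.64 ± 0.27, adjusted p = 0.000202), and Ap2s1, a subunit of the clathrin adaptor, rose in Reactivated (1.64 ± 0.29, adjusted p = 0.000694). Hspa8, the chaperone that uncoats clathrin vesicles, rose in Reactivated against Late (1.07 ± 0.20, adjusted p = 0.00139). The clathrin heavy chain gene Cltc fell in Late against Early (-0.86 ± 0.13, adjusted p = 0.000105), and Ap2b1, another adaptor subunit, rose in Reactivated against Late (0.69 ± 0.15, adjusted p = 0.00412). With every library scaled to the same total, the calls of Apba1 ended in Late (0.22) and Reactivated (0.32) against Basal, that of Cadps2 in Late (0.38) and those of Sh3gl2 in Early (0.50) and Late (0.06). The Sh3gl2 call in Early also ended without Basal 1 (0.60), Basal 2 (0.64) or Early 3 (0.45), and the Slc30a3 call in Early without Basal 2 (-1.05).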

How the data were processed

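RNA was sequenced from sorted neuronal nuclei in 12 libraries, 3 for each of Early, Late, Reactivated and Basal. The deposited table gives 1 count per gene symbol and library, and its name calls the values normalized. They are whole numbers with unequal totals and were treated as raw counts. Per the submitters' processing notes, Bowtie2 2.0, Cufflinks 2.2, DESeq2 and the build mm9 were used, without the role of each. Not given in the sources used here are the counting tool, its annotation and its strand setting. Without a known strand setting, reads of a gene and an antisense partner cannot be told apart.

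The 15668 genes that reached 10 counts in 3 or more libraries were tested with the quasi-likelihood test of edgeR 4.0.16 (R 4.3.3), TMM scaling and the 4 group means fitted to all 12 libraries, after a test on simulated data. Two-sided p-values had Benjamini-Hochberg adjustment across all of these genes, with a threshold of 0.05. The members and lists were chosen with earlier results of these data known. Members with all library values given, 29 in number, passed the test over all 4 groups and had a group mean of at least 50 normalized counts, up to 5 per role by p. Up to 4 genes per pathway list and comparison were eligible to be named, by p. Some genes of these lists are counted but not reported by name here. Alternatives were other scalings, no filter, DESeq2 1.42.0, limma 3.58.1 on log2 of CPM plus 1, the replicate number as a block, each library left out and, chosen after seeing the data, a covariate for the Rn45s share and the omission of Early 3 with Basal 3. Promoter sequences came from RefSeq tables of build GRCm38.p6.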

Additional observations from a re-analysis of the deposited data

How the results depend on the processing

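The counts of members passing stayed within 1.5 times under DESeq2 size factors, same-total scaling, no filter, DESeq2 and limma in all 6 comparisons, although same-total scaling turned directions. On the values as deposited, 3 members passed in Early against Basal, 16 in Late against Basal, 12 in Reactivated against Basal, 12 in Late against Early, 5 in Reactivated against Late and 1 in Reactivated against Early, beside 2.35%, 28.5%, 14.4%, 29.8%, 11.1% and 10.1% of all genes, and 22 passed in the test over all 4 groups. With the Rn45s share as a covariate, 3 passed in Late against Basal, 12 in Reactivated against Basal, 1 in Late against Early, 10 in Reactivated against Late and 0 in Reactivated against Early, beside 1.31%, 3.99%, 0.6%, 11.9% and 0% of all genes. Of the members in Reactivated against Early 15 had an unadjusted p under 0.05 with the covariate. Without it 13 passed in edgeR and 14 in DESeq2, beside 26.2% and 29.4% of all genes. The cause was not tested. Leaving out 1 library gave 8 to 17 members in Early against Basal (8 without Basal 2, 9 without Early 1), 25 to 32 in Late against Basal, 23 to 31 in Reactivated against Basal, 15 to 26 in Late against Early, 12 to 19 in Reactivated against Late, 6 to 14 in Reactivated against Early (6 without Early 2, 7 without Early 1) and 31 to 40 over all groups. The share of all genes then ranged over 3.12% to 7.84%, 39% to 53.3%, 26.9% to 42.6%, 30.6% to 46.5%, 13.7% to 24.6% and 11% to 29.5% in the same order. Leaving out Basal 3 together with Early 3 gave 18, 31, 32, 27, 21 and 17 in the same order, and 40 over all groups. Beside these stood 6.18%, 52.7%, 44.8%, 47.7%, 28.5% and 34.6% of all genes. The replicate block gave 16, 30, 29, 22, 17 and 16 in that order, beside 5.92%, 48.9%, 39%, 42.2%, 22.1% and 25.7% of all genes. It ended 3 calls of single members, Vamp1 (0.34, adjusted p = 0.0547 in edgeR) and Syt7 (-0.45, adjusted p = 0.0588) in Reactivated against Basal and Erc2 (0.51, adjusted p = 0.0507) in Late against Early. Pairs of libraries of the same number had r = -0.22 to 0.48 between their deviations from the group means, with 4 of 18 over 0.1, beside -0.40 to 0.22 for different numbers. Since not every pair was over 0.1 and 0 libraries were closest to their own number in every group, the numbers were not taken to pair the libraries. Turned signs are listed here only for log2 fold changes past the threshold in the main fit or on the alternative. Other values turned sign without passing on either, as the members' median did in Reactivated against Early under same-total scaling (-0.19). Under same-total scaling the listed values were in Late against Basal Snap25 -0.65, Vamp1 -0.42, Vamp2 -0.55, Napb -0.70, Syt1 -0.73, Syt11 -0.041, Syt12 -0.22, Sv2a -0.069, Syngr3 -0.16, Unc13a -0.28, Unc13b -0.071, Bsn -0.40, Pclo -0.27, Erc2 -0.47, and in Reactivated against Basal Vamp1 -0.14, Pclo -0.031, and in Late against Early Vamp1 -0.55, Syt3 -0.11, Syt7 -0.40, Syt12 -0.72, Syt13 -0.49, Syt17 -0.47, Doc2b -0.70, Syn1 -0.23, Syn2 -0.42, Sv2a -0.030, Unc13a -0.31, Bsn -0.35, Pclo -0.55, Erc2 -0.25, Slc17a7 -0.15. With the Rn45s share as a covariate they were in Late against Basal Syp 1.47, Unc13a -0.076, Bsn -0.53, Rab3gap1 0.65, and in Reactivated against Basal Rims1 -0.21, and in Late against Early Stx1a -0.48, Syt4 0.88, Syn1 -0.22, Syngr1 0.41, Rims1 -0.0042, Unc13a -0.18, Erc2 -0.45, Rab3gap1 0.40, and in Reactivated against Late Syt5 -0.62. On the values as deposited 1 such value turned, in Late against Early Unc13a -0.021, which did not pass. The members' median on those values was -0.18 in Late against Early and -0.06 in Reactivated against Early. Further members thus turned there without passing on either setting. Of the values turned by the covariate, only Syp (adjusted p = 0.0495 in edgeR) and Syt5 (adjusted p = 0.0455) passed. Of those turned by same-total scaling, Snap25, Vamp2, Napb, Syt1, Bsn and Erc2 passed in Late against Basal. In Late against Early Vamp1, Syt7, Syt12, Syt13, Syt17, Doc2b, Syn2, Bsn and Pclo passed, and in Reactivated against Basal none did. Depth limits the low-count members most, and Syt9 ranged over only 9.19 to 44.9 with a median of 21.3 normalized counts.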
